A study of Mus musculus with 2 samples.

Results

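Adipocyte marker and lipid storage genes were followed in mouse uterus at the pre-implantation stage, in 10 genes chosen by symbol from the 14678 genes of the deposited table. Adipoq and Cfd encode proteins secreted by fat cells. Lpl, Cd36 and Fabp4 encode proteins of fatty acid release, uptake and binding, Scd1 and Dgat2 enzymes of fat synthesis, Pnpla2 and Lipe lipases of fat breakdown, and Car3 a carbonic anhydrase abundant in fat cells. All 10 genes were found in the table. Uterine RNA of 2 pools, Dox+ and Dox-, was taken at gestation day 2.5 and profiled by digital gene expression, in which short tags are sequenced and assigned to genes, so that the copy number of a gene is the count of its tags. Each pool held RNA of 3 uteri and gave 1 library.

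Both groups were double transgenic females, VEGFtetO/tetO/beta-AKtg/wt, which carried tet operator sequences in the promoter of both Vegf alleles and a tetR-Krab repressor under the beta-actin promoter. The Dox+ females ate doxycycline chow, which keeps the repressor off the promoter, and are labelled VEGF-normal. The Dox- females were adult littermates from which doxycycline had been withdrawn weeks before, and are labelled VEGF-repression. The groups thus differed in doxycycline intake as well as in Vegf repression, and these cannot be told apart here. The repressor was driven in all tissues, so the model does not restrict the repression of Vegf to the uterus or to any cell type in it. The females were mated with VEGFtetO/tetO males. How far tissue attached to the uterus was trimmed is not given in the sources used here.

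White fat cells store fatty acids as triglyceride in a lipid droplet. Lipoprotein lipase frees fatty acids from circulating lipoproteins at the capillary wall, CD36 and fatty acid binding proteins take them into the cell, DGAT2 completes the triglyceride, and adipose triglyceride lipase and hormone-sensitive lipase break it down again. The uterus is no storage organ for fat, but Lpl, Cd36 and Fabp4 are also known from capillary endothelium and macrophages, Car3 from slow skeletal muscle, and Scd1 and Dgat2 from many cells that make lipid.

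The Dox+ library held 4437506 copies in the table and the Dox- library 4218459, of 5985925 and 5844314 clean tags. Vegfa, the repressed gene, had 247 copies in Dox+ and 125 in Dox-, a log2 ratio of -0.95 (95% interval -1.27 to -0.63), which was on the side its label gives. All 10 listed uterus markers were in the table, 9 of them with at least 200 copies over both libraries, led by Myh11, Acta2 and Hoxa10. With 1 library per condition no difference has a replicate check and no test between conditions was possible. The intervals below are exact and cover counting error only, and they say nothing of how uteri of 1 condition differ. Tissue pools cannot tell apart fewer fat cells, less RNA per fat cell and a difference in other cells that express the same genes.

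All 10 genes had a lower level in Dox- than in Dox+. Adipoq, Car3 and Scd1 were at 50.9%, 51.6% and 53.2% of their Dox+ level, and Cd36, with few copies, at 36.0%. The other 6 genes lay between 67.3% and 89.8%, and for Lpl and Pnpla2 the interval of the log2 ratio included 0. Together the 10 genes had 4542 copies in Dox+ and 3098 in Dox-, or 0.102% and 0.0734% of the counted tags. The lowest copy number of any of them in a library was 33 and the highest 1081.

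**Figure D1:**
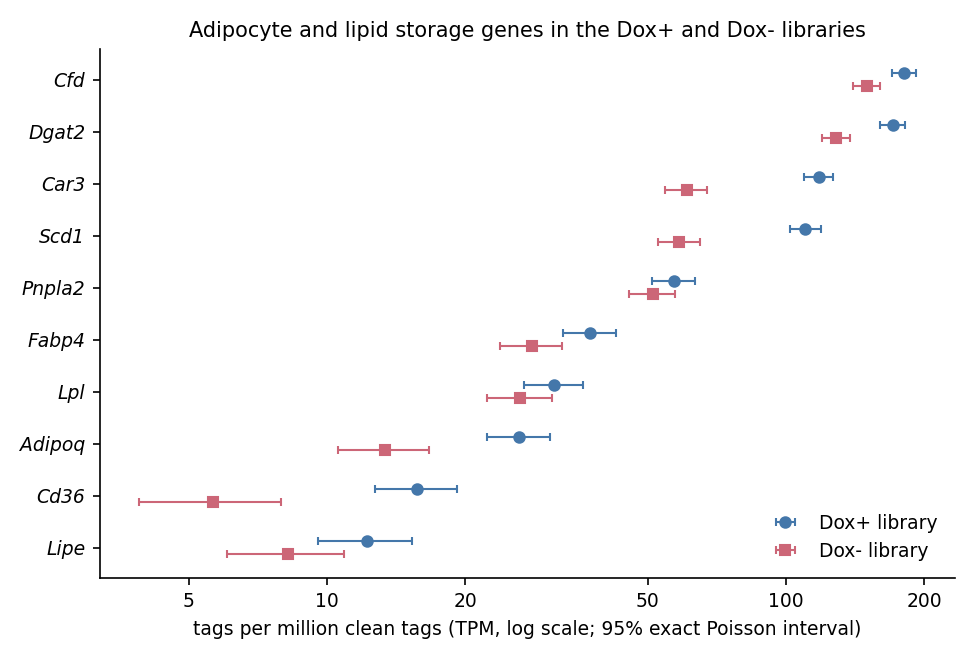
Level of each of the 10 genes in the Dox+ library (circles) and the Dox- library (squares), as TPM (tags per 1000000 clean tags) on a log axis, with 95% exact Poisson intervals for counting error. Every Dox- point lies to the left of its Dox+ point, with a wide gap for Cd36 (15.7 and 5.65 TPM) and a narrow one for Pnpla2 (57.0 and 51.2 TPM).

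A gene was counted as past the fold when it had at least 200 copies over both libraries and differed by at least 1.5-fold. The study's methods use the same minimum of copies. Of the 8 genes with enough copies, 3 were lower by at least 1.5-fold (37.5%), namely Adipoq, Car3 and Scd1, and none was higher. Of all 6547 genes with enough copies, 14.7% were lower by this fold and 15.2% were higher. Cd36 and Lipe had 127 and 121 copies and did not enter that count. With a minimum of 100 copies, all 10 genes entered and 4 were lower past the fold, against 15.6% of all genes. The median log2 ratio was -0.42 for the 8 genes, beside 0.03 for all 6547 genes, of which 47.9% lay below 0. For all 10 it was -0.50, but Cd36 and Lipe have fewer copies than any of the 6547 genes. These are counts over few genes, which were chosen with earlier results of these data known, and none of the 8 was lower by 2-fold.

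**Figure D2:**
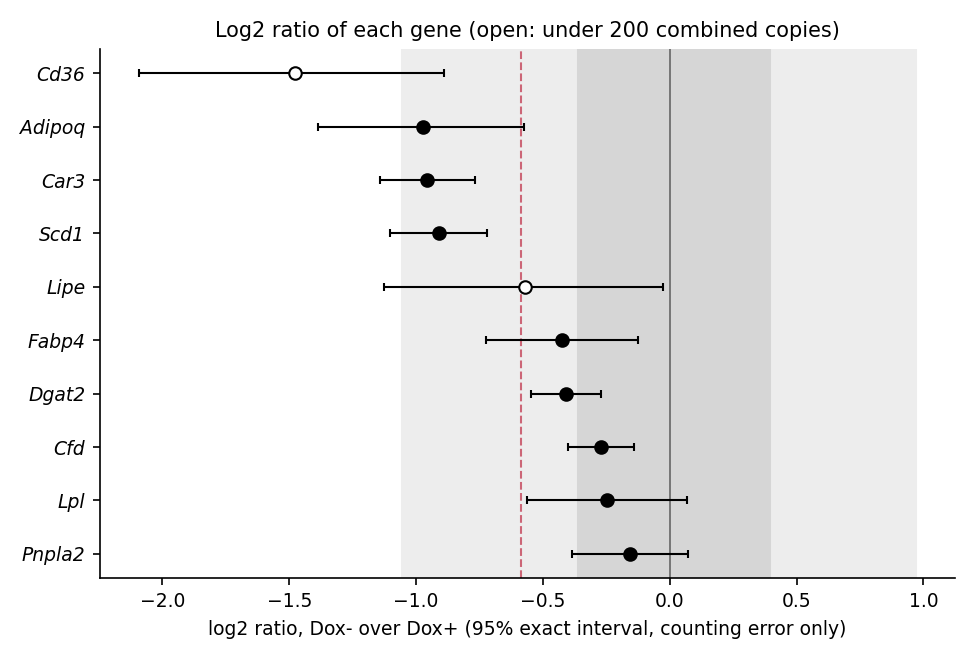
Log2 ratio of Dox- over Dox+ for each of the 10 genes with its 95% exact interval, filled where the gene had at least 200 combined copies and open where it had fewer. The light band spans the 5th to 95th percentiles of all 6547 genes (-1.06 to 0.97), the dark band the 25th to 75th (-0.36 to 0.40), and the dashed line marks 1.5-fold lower. Of the filled points 3 lie left of the dashed line.

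The adipokines, proteins that fat cells release into blood, are represented by Adipoq and Cfd. Adipoq (chromosome 16, 23146609 to 23158101, plus strand of NCBIM37, the assembly also called mm9) encodes adiponectin, a hormone made almost wholly by fat cells. Its 157 copies in Dox+ and 78 in Dox- correspond to 26.2 and 13.3 TPM. The log2 ratio was -0.97 (-1.39 to -0.57), at percentile 5.88 of all genes with enough copies. Cfd (chromosome 10, 79353598 to 79355401, plus strand) encodes adipsin, the protease factor D of the alternative complement pathway. With 1081 copies in Dox+ and 875 in Dox- it differed less, by a log2 ratio of -0.27 (-0.40 to -0.14), at percentile 29.9. Both adipokine genes were thus lower in Dox-, but not to the same degree. There were 0.145 copies of Adipoq for each copy of Cfd in Dox+ and 0.0891 in Dox-, a change of 1.63-fold (1.21 to 2.20) that does not depend on the library size.

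Promoter windows of RefSeq, from 250 bases before to 50 after an annotated start site, were present for Adipoq, Cfd, Cd36, Lipe and Pnpla2, and not for Lpl, Fabp4, Car3, Scd1 and Dgat2. Those of Adipoq and Cfd are shown because both mark the fat cell yet differed unequally, and that of Cd36 because it had the largest fold difference of the 10. Positions are on GRCm38.p6 and differ from the NCBIM37 positions given for the genes. Capitals mark every match, on either strand, to CCAAT, the box bound by NF-Y and related factors, to AGGTCA, the half-site of nuclear receptors such as PPAR gamma, to CACGTG, the E-box, and to TATAAA.
Adipoq, chr16:23146286-23146585, plus strand: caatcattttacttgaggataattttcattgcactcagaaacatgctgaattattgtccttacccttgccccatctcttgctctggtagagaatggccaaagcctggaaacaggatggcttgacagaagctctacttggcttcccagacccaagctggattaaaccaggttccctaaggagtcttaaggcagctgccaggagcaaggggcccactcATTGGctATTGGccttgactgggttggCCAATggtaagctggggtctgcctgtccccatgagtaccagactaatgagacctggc
Cfd, chr10:79890603-79890902, plus strand: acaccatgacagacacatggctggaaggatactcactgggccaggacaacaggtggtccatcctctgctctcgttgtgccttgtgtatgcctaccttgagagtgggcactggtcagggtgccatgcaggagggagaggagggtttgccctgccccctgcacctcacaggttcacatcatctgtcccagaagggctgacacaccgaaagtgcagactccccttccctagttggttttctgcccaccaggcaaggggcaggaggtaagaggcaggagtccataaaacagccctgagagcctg
Cd36, chr5:17835847-17836146, minus strand: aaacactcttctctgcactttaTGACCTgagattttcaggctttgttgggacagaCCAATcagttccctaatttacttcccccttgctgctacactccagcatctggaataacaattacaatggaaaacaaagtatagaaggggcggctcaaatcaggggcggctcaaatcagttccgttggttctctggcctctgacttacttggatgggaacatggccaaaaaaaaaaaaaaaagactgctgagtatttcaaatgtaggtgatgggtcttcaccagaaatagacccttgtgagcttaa

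The Adipoq window held 3 matches to CCAAT, beginning 34, 27 and 7 bases before the start site. Of all 32544 windows of this length 37.4% held at least 1, and the share with 3 was not counted. The Cd36 window held 1 match to CCAAT and 1 to AGGTCA, which 16.2% of all windows held, and the Cfd window held none of the 4 motifs. CACGTG was found in 1 of the 2 windows of Lipe, and in 7.17% of all windows. No TATAAA was found in the 6 windows of the 5 genes, against 13.6% of all. The direct repeat of AGGTCA with 1 base between, the arrangement that PPAR gamma binds with RXR, was in 0.040% of all windows and in none of the 6. A match describes letters in the window and no binding was measured here.

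For fatty acid release and uptake, Cd36 (chromosome 5, 17287508 to 17394777, minus strand) encodes a scavenger receptor that carries long-chain fatty acids into fat cells, muscle and endothelium. It had 94 copies in Dox+ and 33 in Dox-, or 15.7 and 5.65 TPM. The log2 ratio of -1.48 (-2.09 to -0.89) lay at percentile 1.97 of the genes with enough copies. Cd36 itself has too few copies to be one of these genes, and its wide interval reflects the small counts. Lpl (chromosome 8, 71404390 to 71431347, plus strand), lipoprotein lipase, had 187 and 154 copies, a log2 ratio of -0.25 (-0.56 to 0.07). Fabp4 (chromosome 3, 10204347 to 10208576, minus strand), the fatty acid binding protein of fat cells, had 224 and 163 copies, a log2 ratio of -0.42 (-0.72 to -0.13). Lpl therefore differed by less than counting error, while Fabp4 lay just outside it. For each copy of Lpl there were 0.503 copies of Cd36 in Dox+ and 0.214 in Dox-, which was 2.34-fold lower (1.47 to 3.80). Fabp5, the related binding protein of epidermis and other tissues, went from 514 to 370 copies, and the ratio of Fabp4 to Fabp5 was 0.436 in Dox+ and 0.441 in Dox-. The proportion of these relatives differed by less than counting error, by 1.01-fold (0.787 to 1.30).

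Car3 (chromosome 3, 14863538 to 14872351, plus strand) encodes a cytosolic carbonic anhydrase of fat and slow muscle. It had 705 copies in Dox+ and 355 in Dox-, or 118 and 60.7 TPM. The log2 ratio was -0.96 (-1.14 to -0.77), at percentile 6.12. Its ratio was close to that of Adipoq and lower than that of Cfd: Car3 had 0.652 copies for each copy of Cfd in Dox+ and 0.406 in Dox-.

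Fat synthesis was represented by Scd1 and Dgat2. Scd1 (chromosome 19, 44468941 to 44482199, minus strand) encodes the stearoyl-CoA desaturase of fat and liver, which introduces the double bond that turns stearate into oleate. It had 659 copies in Dox+ and 342 in Dox-, a log2 ratio of -0.91 (-1.10 to -0.72). Scd2, the desaturase of brain and many other tissues, was on the other side, with 2866 copies in Dox+ and 4111 in Dox-, a log2 ratio of 0.56 (0.49 to 0.62), short of 1.5-fold. For each copy of Scd2 there were thus 0.230 copies of Scd1 in Dox+ and 0.0832 in Dox-, a 2.76-fold change (2.40 to 3.19). The desaturase genes resemble each other in sequence, and only tags matching 1 gene were counted. Dgat2 (chromosome 7, 106302173 to 106331223, minus strand), diacylglycerol acyltransferase, had 1021 and 751 copies, a log2 ratio of -0.41 (-0.55 to -0.27). Dgat1, which catalyses the same step by an unrelated protein, had 77 and 68 copies, and the ratio of Dgat2 to Dgat1, 13.3 and 11.0, differed by less than counting error (1.20-fold, 0.841 to 1.71).

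Pnpla2 and Lipe encode the lipases that break down stored fat. Pnpla2 (chromosome 7, 148641097 to 148646642, plus strand), adipose triglyceride lipase, which removes the first fatty acid, had 341 copies in Dox+ and 299 in Dox-. Its log2 ratio, -0.16 (-0.38 to 0.07), was nearest to 0 among the 10. Lipe (chromosome 7, 26164546 to 26183729, minus strand), hormone-sensitive lipase, which acts on the next step, had 73 and 48 copies, a log2 ratio of -0.57 (-1.13 to -0.03). Lipe thus had the larger difference but few copies, and the ratio of Lipe to Pnpla2, 0.214 and 0.161, differed by less than counting error (1.33-fold, 0.882 to 2.03).

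In order of the log2 ratio the genes were Cd36, Adipoq, Car3, Scd1, Lipe, Fabp4, Dgat2, Cfd, Lpl and Pnpla2. Of all 45 pairs, 21 differed beyond counting error, by the exact 95% interval of the ratio of their ratios, unadjusted for the number of pairs. None of the 9 pairs of neighbours did, but neighbours are close by construction, since the order was made from the same ratios. Cd36, Adipoq, Car3 and Scd1 lay at one end of this order and Cfd, Lpl and Pnpla2 at the other. The GO column of the table places Lpl, Cd36 and Scd1 in fatty acid metabolic process, a term of 49 genes in the table, and Lpl, Dgat2 and Lipe in triglyceride metabolic process, a term of 41. Adipoq, Lpl and Cd36 share macrophage derived foam cell differentiation, with 23 genes. Cd36 and Adipoq share response to insulin stimulus, with 67 genes.

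Further genes of fat cells and of lipid handling were taken from 8 lists ordered by role. The lists overlap, and together they named 130 genes, of which 118 were in the table and 45 had at least 200 copies. Of these 45 genes, 10 were lower past the fold (22.2%), 6 were higher (13.3%), and the median log2 ratio was -0.21. Over all genes the shares were 14.7% and 15.2%, so that the lists as a whole held genes on both sides.

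Of 24 other adipocyte markers, 19 were in the table and 3 had enough copies, with 1 lower past the fold and none higher. With a minimum of 100 copies 3 were lower and 1 was higher, and of all 19 genes 12 had a lower level in Dox-. The gene lower at 200 copies was Thrsp, a regulator of lipogenesis in fat and liver, with 502 copies in Dox+ and 217 in Dox- (log2 ratio -1.18, -1.41 to -0.94). Itih5 and Cebpa, the others with enough copies, had log2 ratios of -0.33 and -0.40. Of the genes that define fat cells, Retn, which encodes the adipokine resistin in mouse fat, had 151 copies in Dox+ and 43 in Dox-, a log2 ratio of -1.78 (-2.30 to -1.28), but its sum is under 200. Relative to Adipoq, Retn was 1.74-fold lower (1.11 to 2.77). Cidec, a protein of the fat cell's lipid droplet, had 108 and 78 copies, a log2 ratio of -0.43. Gpd1, which makes the glycerol phosphate backbone of triglyceride and was named after its values were seen, was on the other side with 31 and 75 copies, a log2 ratio of 1.31 (0.69 to 1.96). Plin1, the main droplet coat protein of fat cells, had 6 and 4 copies, Adrb3, the beta-3 adrenergic receptor, 12 and 5, and Pparg, the master regulator of fat cell formation, 2 and 7. Lep, which encodes leptin, was not analysed here. Plin1, Adrb3 and Pparg were thus close to the floor of 3 copies in at least 1 library, and their log2 intervals included 0, while Adipoq, Cfd and Fabp4 had many more copies.

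Of the receptors of adipokines, Adipor2, an adiponectin receptor, had 590 copies in Dox+ and 188 in Dox-, a log2 ratio of -1.62 (-1.86 to -1.38). Adipor1, the other receptor, had 650 and 534 copies, a log2 ratio of -0.25 (-0.42 to -0.08). The 2 receptor genes had similar copies in Dox+, 0.908 of Adipor2 for each of Adipor1, and 0.352 in Dox-, a 2.58-fold change (2.10 to 3.17). Cdh13 and Lepr, the other genes of this list, had 9 and 21 copies and 16 and 21 copies.

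In the list of fatty acid uptake and binding, 6 of 23 genes had enough copies, and 1 was higher and none lower past the fold. Acsl5, which activates fatty acids to acyl-CoA, had 188 copies in Dox+ and 416 in Dox- (log2 ratio 1.18). Dbi, an acyl-CoA binding protein, had 730 and 763 copies, and Angptl4, an inhibitor of lipoprotein lipase, 513 and 495. Gpihbp1, named after its values were seen, anchors lipoprotein lipase to capillary endothelium. It had 50 copies in Dox+ and 7 in Dox-, a log2 ratio of -2.80 (-4.19 to -1.65), and was 5.86-fold lower relative to Lpl (2.55 to 15.8). The anchor of the lipase was thus lower while the lipase itself was not beyond counting error.

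**Figure D3:**
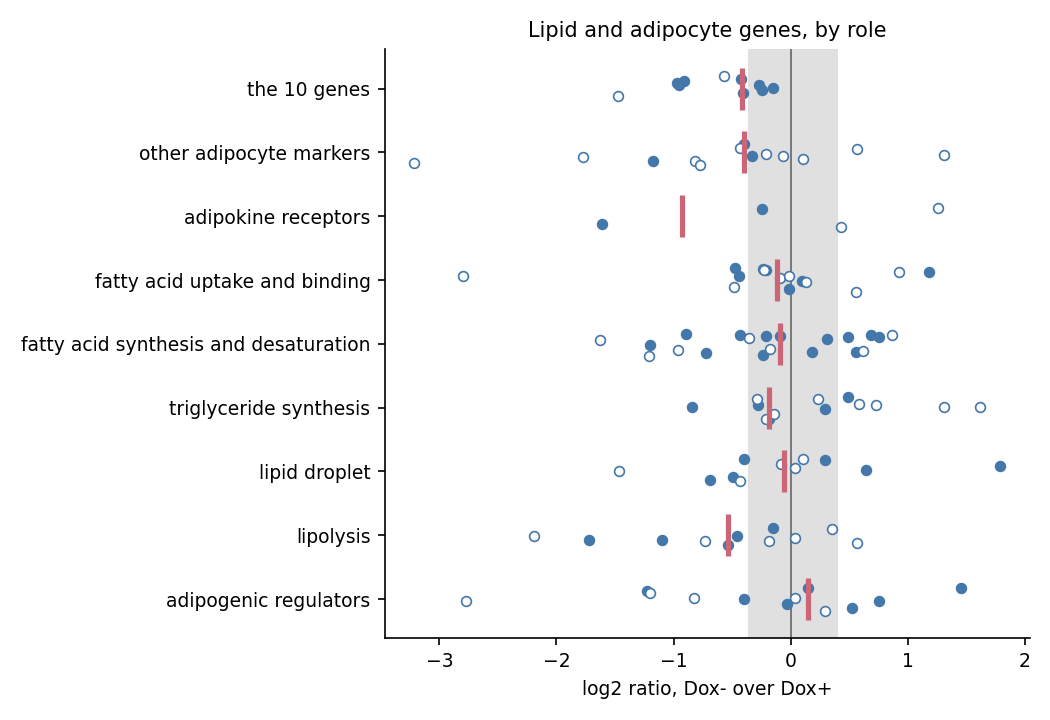
Log2 ratio of Dox- over Dox+ for the 10 genes and for the listed genes of each role with at least 20 combined copies and a tag in both libraries, filled at 200 copies or more and open below. Vertical bars mark the median of the filled points and the grey band the 25th to 75th percentiles of all 6547 genes. The 10 genes lie wholly left of 0, while the lists of synthesis, droplet and regulator genes have points on both sides.

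Of 26 genes of fatty acid synthesis and desaturation, 13 had enough copies, with 3 lower and 2 higher past the fold and a median log2 ratio of -0.09. Cyb5 and Cyb5r3, the cytochrome and its reductase that pass electrons to desaturases, were lower, with 1434 and 752 copies and 1648 and 700 copies. Acaca, the carboxylase that makes malonyl-CoA, was lower as well, with 300 and 177 copies. Srebf1, which encodes the transcription factor SREBP-1, had 397 and 654 copies, and Hsd17b12, an elongation enzyme, 235 and 369, both higher. Tecr, also of elongation, had 2016 and 1455 copies. The synthesis list therefore held genes on both sides.

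For triglyceride synthesis, 5 of 16 genes had enough copies and 1 was lower past the fold, Agpat4 with 140 and 76 copies. Agpat6, Agpat3 and Agpat5, acyltransferases of the same route, had log2 ratios of -0.28, -0.19 and 0.29. In the lipid droplet list Ptrf, a coat protein of caveolae, was lower with 2178 and 1317 copies, and Cav1, its partner, had 1882 and 1308 copies, short of the fold. Hsd17b11, a droplet-bound dehydrogenase, was higher with 256 and 864 copies (log2 ratio 1.79), and so was Rab18, a droplet-associated GTPase, with 659 and 1006. The median of the 6 droplet genes with enough copies was -0.05.

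Lipolysis had a median of -0.54 over 5 genes, the lowest of the lipid lists with at least 3 genes with enough copies, of which 2 were lower past the fold and none was higher. G0s2, the inhibitor of adipose triglyceride lipase, had 210 copies in Dox+ and 62 in Dox-, a log2 ratio of -1.73 (-2.16 to -1.31). Relative to Pnpla2, the lipase that it inhibits, G0s2 was 2.97-fold lower (2.13 to 4.17). Mgll, which removes the last fatty acid of the triglyceride, had 257 and 117 copies (log2 ratio -1.10). Prkaca, the catalytic subunit of protein kinase A, and Lipa, the lysosomal acid lipase, had log2 ratios of -0.54 and -0.46. Of the adipogenic regulators, 7 of 17 had enough copies. Cebpb was higher, with 258 and 692 copies, as was Srebf1, and Klf15 was lower, with 223 and 93 copies. Cebpd had 224 and 314 copies, short of the fold.

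Markers of other cell types that the uterus holds differed as well, and their part in the ratios of the 10 genes was not tested. Of 12 endothelial markers, 10 had a lower level in Dox-. Their sum was 1881 copies in Dox+ and 1208 in Dox- (log2 ratio -0.60, -0.71 to -0.50), and 4 of the 6 with enough copies were lower past the fold. Cdh5, a cadherin of endothelial junctions, had 446 and 216 copies and Egfl7 had 255 and 140, while Pecam1 had 243 and 253. The sum of the macrophage markers went the other way, with 3808 copies in Dox+ and 4987 in Dox- (log2 ratio 0.42), of which Lyz1 alone held 1772 and 2718. Of the 12 macrophage markers, 2 had a lower level in Dox-. Of the 8 with enough copies, 3 were higher past the fold, namely Lyz1, Mrc1 with 163 and 241 copies and C1qc with 92 and 142. None of the 8 was lower past the fold and 5 were neither. Of these 5, C1qb had 755 and 804 copies, C1qa 396 and 336, Csf1r 186 and 181, Aif1 146 and 152, and Lyz2 127 and 169.

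Among 17 skeletal muscle markers, 11 were in the table, and their sum was 3979 copies in Dox+ and 1427 in Dox-, a log2 ratio of -1.44 (-1.53 to -1.36). Acta1, the skeletal muscle actin, held most of these with 3385 and 1241 copies, so that the sum mainly gives this gene. Only 2 of the 11 genes, Acta1 and Tnni2, had at least 200 copies over both libraries. A lower level in Dox- was seen for 9 of the 11, while Mb had 0 and 4 copies and Atp2a1 0 and 2. Myh1, Myh2, Myh4, Myh7, Myl1 and Pvalb were not analysed here. Tnni2 had 408 and 99, Tnnt1 of slow fibres 51 and 45, Tnnt3 of fast fibres 50 and 12, Ckm 33 and 13, and Mylpf 5 and 3. Smooth muscle markers had a summed log2 ratio of -0.54 and stromal markers of -0.53, and in these lists 4 of 8 and 4 of 10 genes were lower past the fold. Tagln, Actg2 and Myh11 had the most copies of the smooth muscle list over both libraries. The stromal list was mixed, since Hand2, Hoxa10 and Hoxa11 had log2 ratios of -2.75, -1.52 and -1.68 and Vim of -0.60, while Lum was higher past the fold at 0.88, Dcn stood at 0.33 and Thy1 had 723 and 707 copies. Epithelial markers had a summed log2 ratio of 0.18, but 2 of the 8 with enough copies were lower and 2 higher past the fold. Of the genes with the most copies, Krt19 had 1554 copies in Dox+ and 2046 in Dox-, Cldn3 1482 and 494 copies (log2 ratio -1.55) and Krt8 1330 and 1481, and Cldn4 was lower as well, while Epcam and Muc1 were higher. Of 6 mesothelial markers, 5 were lower, among them Wt1 with 325 and 157 copies, Msln with 66 and 18 and Upk3b with 5 and 2, while Krt19, which epithelium shares, had 1554 and 2046 and set the sum. The summed log2 ratio of the 10 genes was -0.52, and that of the 10 uterus markers, which overlap with these lists, was -0.60. The uterus markers were mixed as well. Of the 9 with enough copies, Hand2, Hoxa10 and Hoxa11 were the 3 lower past the fold. Pgr and Esr1 were the 2 higher, with log2 ratios of 0.90 and 0.70.

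**Figure D4:**
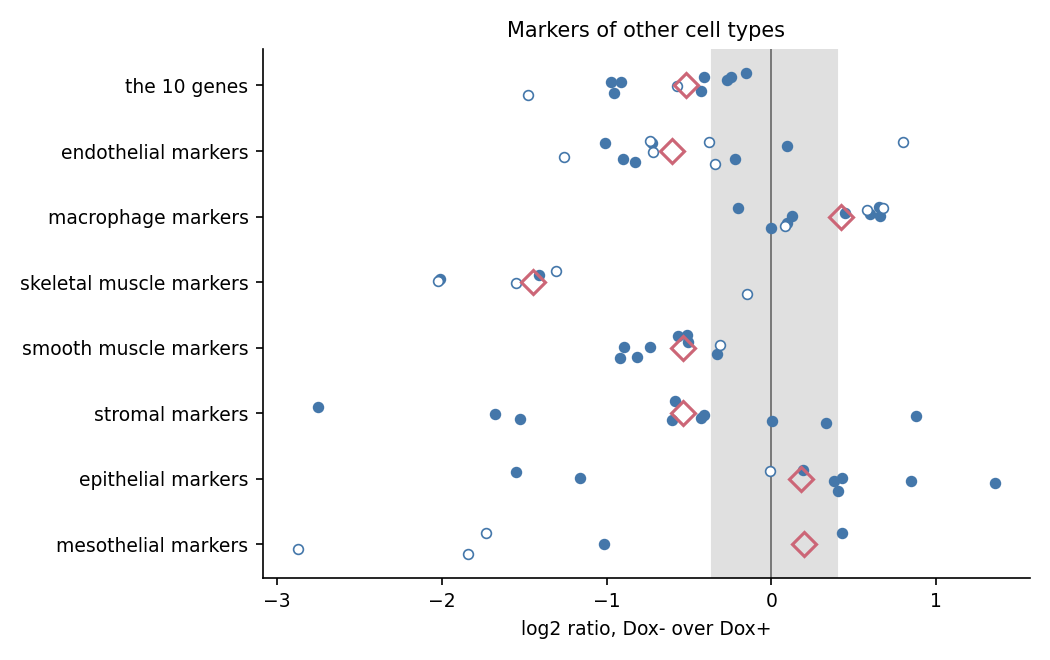
Log2 ratio of Dox- over Dox+ for the 10 genes and for markers of other cell types with at least 20 combined copies and a tag in both libraries, filled at 200 copies or more and open below. Diamonds mark the log2 ratio of the summed copies and the grey band the 25th to 75th percentiles of all 6547 genes. The diamonds of endothelial (-0.60), smooth muscle (-0.54) and stromal markers (-0.53) lie near that of the 10 genes (-0.52), and that of skeletal muscle (-1.44) lies lower.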

How the data were processed

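Total RNA of 3 uteri per condition was pooled and 1 library per condition sequenced. The authors removed adaptor-only, low quality and single-copy tags, matched the rest to mm9 reference mRNAs and deposited the unambiguous tags of each gene as counts, without normalization. The deposited TPM values are the authors' copies per 1000000 clean tags, without length correction, with 0.01 for a count of 0. The submitters' notes name CASAVA. The copies in the deposited table sum to fewer than the unambiguous tags that the paper reports for each library. Tags of both strands were searched. The aligner, the enzyme and whether the deposited copies include antisense tags are not given in the sources used here. The labels describe mRNA fragmentation and the paper tags, which was not resolved. Deposited columns of ratios, P-values and FDR hold the authors' comparisons and were not used.

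The clean tags were recovered as the 1 whole number per library that returns every TPM to 2 decimals. Ratios are copies per clean tag, Dox- over Dox+, with 95% intervals by the Clopper-Pearson method on the share of a gene's tags that fell in Dox-, and levels have exact Poisson intervals. Ratios between genes within a library have conditional exact intervals of the odds ratio. A count of 3 was taken as the floor. The intervals of the ratios and the fold rule were tested on simulated counts with counting error only, without variation between uteri. Genes and lists were chosen with earlier results of these data known. By rule, the text names the 10 genes, Vegfa, the 3 genes with the most copies of each list, genes of the lipid lists past the fold, and the genes defining fat cells. Marker genes past the fold, which the rule also names, are given mainly as counts. Alternatives were other library sizes, TMM of edgeR 4.0.16, median-of-ratios scaling, other minimum copies and folds, a pseudocount of 1, and the study's rule with the Audic-Claverie test. Gene positions are from GENCODE on NCBIM37. Python 3.11.15, scipy 1.17.1, R 4.3.3 and matplotlib 3.10.9 were used.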

Additional observations from a re-analysis of the deposited data

How the results depend on the processing

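The log2 ratios of the 10 genes stayed negative and inside their counting intervals with counted tags as library size, TMM, median-of-ratios scaling and a pseudocount of 1, and their median ranged from -0.53 to -0.46. These scalings shifted all ratios by -0.03 to 0.04. The interval of Lipe ended at -0.03 in the main setting, nearer to 0 than the shift from counted tags. The count of 3 genes lower past the fold stayed under these settings and under an absolute log2 ratio above 0.5 with an Audic-Claverie FDR below 0.05, was 4 with a minimum of 100 or 20 copies or none, and was 0 at 2-fold. Over all genes, 368 were lower and 302 higher at 2-fold, 2256 and 2385 with a minimum of 20 copies, and 2939 and 2977 with none, beside 961 and 994. Over the 8 lipid lists, 6 were lower and 3 higher at 2-fold, 24 and 13 with a minimum of 20 copies, and 30 and 20 with none, beside 10 and 6. Lower minimums add genes with few copies, whose ratios have wide intervals. Of the 7 lists of other cell types, 4 had a lower sum under each scaling, which was tried after seeing the data. No paired analysis was possible because each condition has 1 library. Variation between uteri could not be measured, since the 3 uteri were pooled.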
